A study of Mus musculus with 6 samples.

Results

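Long-chain fatty acids must be joined to coenzyme A before a cell can burn them, store them or build them into membranes. That step is carried out by the acyl-CoA synthetases of the ACSL family, encoded by Acsl1, Acsl3, Acsl4, Acsl5 and Acsl6. For oxidation the acyl chain is passed to carnitine by CPT1 at the outer mitochondrial membrane and back to coenzyme A by CPT2 at the inner membrane. It is then shortened by rounds of beta-oxidation, which open with an acyl-CoA dehydrogenase matched to chain length, ACADVL for very long and ACADM for medium chains, and continue on the trifunctional protein, whose alpha subunit is HADHA. In T cells, fatty acid oxidation is known mainly from memory and regulatory cells, whereas effector cells such as Th17 cells rely heavily on glycolysis and on fatty acid synthesis.

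These 10 genes (Acsl1, Acsl3, Acsl4, Acsl5, Acsl6, Cpt1a, Cpt2, Acadm, Acadvl and Hadha) were taken by symbol from the 54525 genes of the deposited table, and all 10 were found. They were chosen by name with their KO and WT raw counts in view, so their KO against WT differences are given as a description and not as a test, and the counts over them support nothing further. The KO group held 3 libraries with the genotype label iCD4-PRMT5delta/delta, and the WT group held 3 with the label iCD4-PRMT5fl/fl, all from C57BL/6 mice. Every culture began as naive CD4 T cells of spleen and lymph nodes and was stimulated for 72 hours through CD3 and CD28 in the presence of IL-6 and TGFβ, the pair of cytokines that starts Th17 differentiation. The labels expand neither iCD4 nor the deletion, give no age, and do not say whether cultures of a group came from separate mice. The spread between the WT libraries, or between KO replicates 1 and 3, may thus be technical. KO replicate 2 differed from KO replicates 1 and 3 in sex-linked counts, given below, so the KO libraries were not all copies of the same cells. Each KO column name joins 2 numbers, 1 of them common to all 3 KO libraries, where a WT name holds 1 number. The meaning is not stated, so whether the KO libraries share part of their source cannot be told. A shared part would narrow their spread, the SEs and the p-values. From the title, the comparison asks how the arginine methyltransferase PRMT5 bears on lipid (cholesterol) synthesis and Th17 responses.

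The libraries held 36489789 to 41467126 counts in KO and 36011906 to 43141474 in WT. Levels below are CPM, each gene's share of the library's counts scaled to a common total, after TMM scaling, given per library in the order of replicates 1, 2 and 3, and log2 changes are KO over WT with the standard error (SE) of the edgeR fit. A gene was called at an edgeR adjusted p under 0.05, adjusted over all 16006 genes tested. By that rule 21.7% of all tested genes were called higher and 20.9% lower. Prmt5 stood at 52.4, 43.8 and 52.9 CPM in KO and at 109, 137 and 118 CPM in WT. Cd4, the coreceptor that defines the sorted cells, had 276, 281 and 269.9 CPM in KO and 269, 119.8 and 233 CPM in WT. WT replicate 2 was thus the lowest in Cd4, apart from the other WT libraries. The libraries also differed in sex-linked and cell type markers. The 4 Y-linked genes looked at had no counts in any WT library and summed to 566.5, 74.4 and 585 CPM in KO. The T cell markers summed to 2870 to 2946 CPM in KO and to 2403 to 2593 CPM in WT, and 4 of 8 were called higher. Several lists of markers of other cells had higher sums in KO. The B cell markers (5 of 6 tested called higher) summed to 43.2 to 119.9 CPM in KO and 3.98 to 23.4 CPM in WT, and the gamma delta T cell markers (4 of 4 tested) to 57.2 to 102 CPM in KO and 12.6 to 16.5 CPM in WT. Those of myeloid and dendritic cells (5 of 6) summed to 10.3 to 31.0 CPM in KO and 2.80 to 3.51 CPM in WT, with Xcr1 and Siglech at 0 throughout, and those of granulocytes and mast cells (4 of 4) to 8.82 to 43.7 CPM in KO and 0.085 to 0.393 CPM in WT. The CD8 pair (2 of 2) summed to 14.7 to 17.2 CPM in KO and 5.58 to 7.88 CPM in WT, the NK and innate lymphoid list (2 of 4 higher, 1 lower) to 49.0 to 99.4 CPM in KO and 62.6 to 80.4 CPM in WT, and the stromal list (2 of 2) to 190.4 to 229.7 CPM in KO and 127.7 to 144.5 CPM in WT, nearly all of it Pecam1, which T cells also express. Erythroid markers stayed at or under 0.232 CPM in KO and 0.085 CPM in WT. The 4 tested markers of granulocytes and mast cells passed the filter on low counts only through the KO libraries. So did Pdgfrb of the stromal list, with 37 counts over the KO libraries and 3 over the WT libraries. The calls of these markers were thus close to fixed by the filter and add nothing to the levels. The B cell, myeloid and granulocyte sums were highest in KO replicate 3. The part of these cells and of sex in the results below was not tested. Fits named beside them give values only. With no Y-linked counts in WT, the adjustment for Y-linked counts sets sex apart from genotype mainly through KO replicate 2. Resting on 1 library, it cannot decide between them.

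The RefSeq start windows of all 10 genes (250 bases before to 50 after a start, GRCm38.p6) were searched on both strands for motifs of known lipid regulators. These were the sterol regulatory element core TCACNCCAC, the E-box CACGTG, the hexamer AGGTCA that PPAR and related nuclear receptors read, its direct repeat with 1 base between the copies, and the ERR element TCAAGGTCA, which contains the hexamer. Of 13 windows, 4 held the hexamer, 1 held the ERR element, 1 held the sterol regulatory element core, and none held the E-box or the repeat. Among all 32851 windows in the table the shares were 16.3% for the hexamer, 0.423% for the ERR element, 1.24% for the sterol regulatory element core, 7.15% for the E-box and 0.0396% for the repeat. The 5 windows with a match are printed 5′ to 3′ on the strand of the gene to show where the letters of such motifs lie. The windows of Acsl3, Acsl4, Acsl5, Cpt2 and Hadha held no match. Nor did the upstream window of Acsl1 or the other windows of Acsl6. Capitals mark the matches, which read TGACCT, TGACCTTGA or GTGGGGTGA where the motif lies on the opposite strand. They begin 189 and 167 bases before the start in Acsl6, where the ERR element overlaps the second hexamer, 76 before it in Acsl1, 94 in Cpt1a, 249 in Acadm and 87 in Acadvl. A match describes letters in a window and is not evidence of binding.
The Acsl6 window lies at chr11:54303574-54303873 on the plus strand, the Acsl1 window, at an alternative downstream start, at chr8:46490716-46491015 on the plus strand, and the Cpt1a window at chr19:3323051-3323350 on the plus strand. The Acadm window lies at chr3:153944594-153944893 and the Acadvl window at chr11:70015379-70015678, both on the minus strand.
Acsl6: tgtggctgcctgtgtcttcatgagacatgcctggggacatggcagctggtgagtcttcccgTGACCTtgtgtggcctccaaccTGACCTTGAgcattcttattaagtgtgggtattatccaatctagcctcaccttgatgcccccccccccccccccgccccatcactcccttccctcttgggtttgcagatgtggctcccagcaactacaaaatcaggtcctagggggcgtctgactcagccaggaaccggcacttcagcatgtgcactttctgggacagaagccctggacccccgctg
Acsl1: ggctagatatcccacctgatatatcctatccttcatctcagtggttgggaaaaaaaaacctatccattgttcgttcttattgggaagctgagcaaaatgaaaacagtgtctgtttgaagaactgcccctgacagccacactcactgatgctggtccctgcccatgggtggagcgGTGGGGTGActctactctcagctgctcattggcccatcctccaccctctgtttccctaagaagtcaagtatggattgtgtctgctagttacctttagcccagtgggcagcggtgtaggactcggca
Cpt1a: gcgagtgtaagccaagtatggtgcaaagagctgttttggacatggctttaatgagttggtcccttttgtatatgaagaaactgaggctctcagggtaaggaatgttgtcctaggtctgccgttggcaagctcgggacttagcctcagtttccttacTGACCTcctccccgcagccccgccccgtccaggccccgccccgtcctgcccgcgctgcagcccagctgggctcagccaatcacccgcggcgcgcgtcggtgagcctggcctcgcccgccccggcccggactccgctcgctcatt
Acadm: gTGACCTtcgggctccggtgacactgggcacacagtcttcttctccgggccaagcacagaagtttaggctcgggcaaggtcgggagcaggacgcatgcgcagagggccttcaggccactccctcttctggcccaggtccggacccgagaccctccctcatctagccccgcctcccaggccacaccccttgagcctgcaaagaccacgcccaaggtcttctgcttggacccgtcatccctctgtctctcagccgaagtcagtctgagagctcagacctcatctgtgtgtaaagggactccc
Acadvl: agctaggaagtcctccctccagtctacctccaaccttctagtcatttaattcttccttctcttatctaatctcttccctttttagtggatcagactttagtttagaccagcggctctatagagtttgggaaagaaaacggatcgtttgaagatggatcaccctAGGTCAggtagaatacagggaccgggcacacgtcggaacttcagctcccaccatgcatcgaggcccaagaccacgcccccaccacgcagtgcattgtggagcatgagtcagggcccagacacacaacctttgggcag

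In KO cultures 4 of the 5 Acsl genes were lower, Acsl6 by far the most of the 10 genes, and Acsl5 was not called. Across all tested genes 42.5% were called, 20.9% in the lower direction. Positions are those of GENCODE M21 on GRCm38. Acsl6 (ENSMUSG00000020333.17, chromosome 11, 54303798 to 54364756), whose product favours polyunsaturated chains and is best known from brain, had 2.16, 2.99 and 1.64 CPM in KO, against 43.4, 36.6 and 33.7 CPM in WT. All 3 KO libraries lay far below every WT library, at 5.98% of the WT mean (log2 change -4.07 ± 0.22 SE). The raw counts were 90, 113 and 71 in KO and 1531, 1492 and 1375 in WT. The antisense gene Gm12224 that overlaps Acsl6 had 1 count in all 6 libraries together.

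Acsl4 (ENSMUSG00000031278.12, chromosome X, 142317993 to 142390535), which favours arachidonic acid and thereby shapes the oxidisable phospholipids of membranes, had 132, 129 and 128 CPM in KO and 297, 265 and 286 CPM in WT. The groups did not overlap, and the KO libraries lay close together (log2 change -1.12 ± 0.06 SE). The gene is X-linked and the groups differed in Y-linked counts, so X-linked values are given beside it. The 484 X-linked genes tested had a median log2 change of -0.04, against -0.0011 for 15503 autosomal genes, and 27 of the 484 were at or below Acsl4. Xist, the RNA that coats an inactive X chromosome, stood at 0.024, 479 and 0 CPM in KO and at 395, 416 and 389 CPM in WT. KO replicate 2 held both Xist, near the WT level, and Y-linked counts, with the lowest Y-linked sum of the KO libraries. When KO replicate 2 alone stood for KO the log2 change of Acsl4 was -1.12. The part of sex in the Acsl4 level was not tested.

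Acsl3 (ENSMUSG00000032883.15, chromosome 1, 78657825 to 78707743), a synthetase of the endoplasmic reticulum and lipid droplets, had 32.5, 35.7 and 36.5 CPM in KO and 83.2, 84.6 and 78.9 CPM in WT. KO libraries were at 42.5% of the WT mean with no overlap (log2 change -1.24 ± 0.07 SE). Acsl3 overlaps Utp14b on the same strand over 13475 bases. Utp14b itself was called lower (log2 change -0.81 ± 0.08 SE, edgeR adjusted p = 0.000209), and how reads common to both were counted is not given in the sources used here. Acsl1 (ENSMUSG00000018796.13, chromosome 8, 46471037 to 46536051), the main synthetase of fat, heart and liver, had 8.14, 8.21 and 8.99 CPM in KO and 17.6, 10.9 and 15.7 CPM in WT. The groups did not overlap, although WT replicate 2 came close to the KO libraries (log2 change -0.80 ± 0.18 SE, and -0.98 without that library). Acsl1 passed the threshold in the fit of all libraries. It no longer passed when KO replicate 2 alone stood for KO (log2 change -0.83) or after adjustment for Y-linked counts (-0.85, edgeR adjusted p = 0.109). These fits are not separate checks, since the Y-linked adjustment also rests mainly on KO replicate 2.

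Acsl5 (ENSMUSG00000024981.6, chromosome 19, 55251938 to 55297720), a synthetase found on mitochondria and the endoplasmic reticulum, had 350.5, 344 and 333 CPM in KO and 345, 377 and 358 CPM in WT. The groups overlapped (log2 change -0.07 ± 0.05 SE, 95% interval -0.20 to 0.05). Its gene overlaps Zdhhc6 on the opposite strand over 26430 bases, and Zdhhc6 had 3428 to 3683 counts in KO and 3581 to 4413 counts in WT. Zdhhc6 was called lower (log2 change -0.23 ± 0.06 SE, edgeR adjusted p = 0.0131).

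Per length of transcript, the synthetase pool was smaller in KO and made up differently. The summed level of the 5 genes was 116 ± 1.95 CPM per kilobase in KO and 168 ± 1.15 CPM per kilobase in WT (SD, n = 3 each), 68.9% of the WT mean, with lengths as the authors deposited them. Acsl5 made up 70.2%, 69.6% and 68.9% of that sum in KO and 48.1%, 52.7% and 50.5% in WT. The share of Acsl4 was 21.2% ± 0.216 in KO and 31.8% ± 1.82 in WT, and that of Acsl3 was 7.63% ± 0.582 in KO and 12.4% ± 0.377 in WT (SD, n = 3 each). Acsl6 held 0.336% ± 0.0985 in KO and 3.88% ± 0.481 in WT, and Acsl1 1.29% ± 0.093 in KO and 1.54% ± 0.361 in WT, where the groups overlapped. In bulk RNA, fewer cells carrying a transcript and less of it per cell cannot be told apart.

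**Figure D1:**
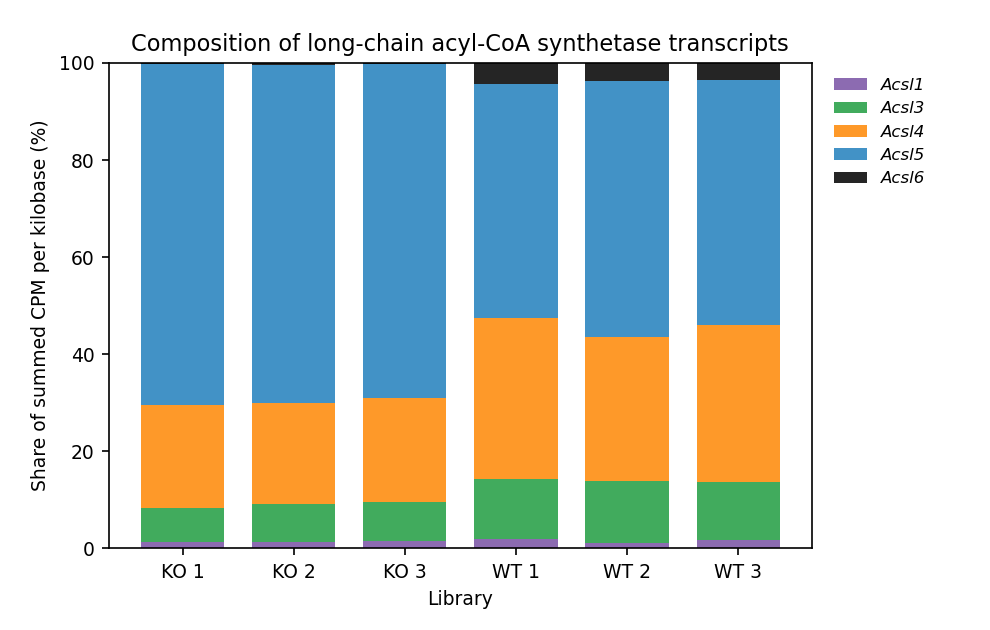
Share (percent, y axis) of each Acsl gene in the summed CPM per kilobase of the 5 genes, 1 stacked bar per library, the 3 KO libraries on the left and the 3 WT libraries on the right. Acsl5 takes 68.9% to 70.2% of each KO bar and 48.1% to 52.7% of each WT bar, and the black segment of Acsl6 is visible mainly in WT.

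At the carnitine step Cpt1a was higher in KO, and its partner Cpt2 differed by less than the spread between libraries. Cpt1a (ENSMUSG00000024900.4, chromosome 19, 3322334 to 3385733), the liver-type enzyme that sets the rate of chain entry into mitochondria and is inhibited by malonyl-CoA, had 68.3, 61.4 and 75.3 CPM in KO and 42.8, 45.2 and 45.5 CPM in WT. All KO libraries lay above all WT libraries, 1.54 times the WT mean (log2 change 0.62 ± 0.08 SE). KO replicate 3, the library richest in B cell and myeloid markers, was the highest, and without it the log2 change was 0.55. Adjusted for Y-linked counts it was 0.43.
Cpt2 (ENSMUSG00000028607.16, chromosome 4, 107903981 to 107923610) had 11.4, 9.41 and 11.1 CPM in KO and 11.7, 9.29 and 11.9 CPM in WT. The groups overlapped (log2 change -0.04 ± 0.13 SE, 95% interval -0.36 to 0.27). Per length, Cpt1a stood at 3.55 ± 0.219 times Cpt2 in KO and 2.27 ± 0.361 times in WT (SD, n = 3 each).

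Of the dehydrogenases, that for very long chains was lower and that for medium chains higher in KO, while Hadha, of the trifunctional protein, differed by less than the spread of the libraries. Acadvl (ENSMUSG00000018574.14, chromosome 11, 70010183 to 70015411) had 82.7, 89.0 and 88.5 CPM in KO and 148, 156 and 152 CPM in WT, with no overlap (log2 change -0.81 ± 0.05 SE). Dvl2, which overlaps Acadvl on the opposite strand over 2119 bases, had 91 to 106 counts in KO and 45 to 76 in WT, so its own counts were few beside those of Acadvl.
Acadm (ENSMUSG00000062908.12, chromosome 3, 153922357 to 153944632) had 82.3, 86.8 and 92.9 CPM in KO and 60.8, 57.7 and 56.4 CPM in WT, again with no overlap (log2 change 0.58 ± 0.07 SE). Per length, Acadm was thus level with Acadvl in KO, at 1.05, 1.03 and 1.11 times its value, and well below it in WT, at 0.436, 0.392 and 0.392 times.
Hadha (ENSMUSG00000025745.12, chromosome 5, 30118304 to 30155162) had 154, 139 and 157 CPM in KO and 128, 187 and 147 CPM in WT. The groups overlapped, and WT replicate 2 was the highest of the 6 libraries (log2 change -0.04 ± 0.13 SE, 95% interval -0.35 to 0.27). Without WT replicate 2 the log2 change was 0.12 and was not called (edgeR adjusted p = 0.267). Hadhb, named after its values were seen, encodes the beta subunit of the same protein and starts 273 bases away on the other strand in RefSeq. It had 144, 155 and 138 CPM in KO and 128, 139 and 138 CPM in WT, and was not called (edgeR adjusted p = 0.206). The Hadha to Hadhb ratio per length was 1.13 ± 0.136 in KO and 1.24 ± 0.202 in WT (SD, n = 3 each), and the groups overlapped.

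**Figure D2:**
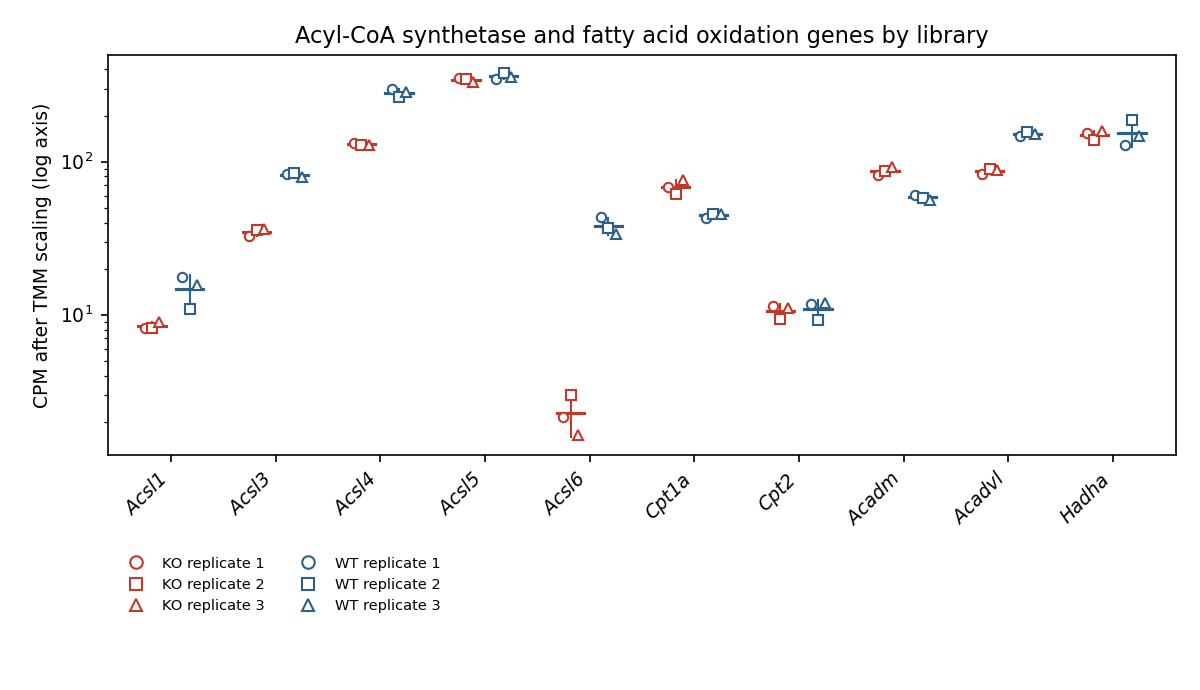
CPM (log axis) of the 10 genes in each library, KO in red left of WT in blue, with symbols for replicates, a bar for the mean and a line for 1 SD. The groups are apart for Acsl1, Acsl3, Acsl4, Acsl6, Cpt1a, Acadm and Acadvl, and overlap for Acsl5, Cpt2 and Hadha.

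Counted together, 2 of the 10 genes (Cpt1a and Acadm) were called higher in KO and 5 (Acsl1, Acsl3, Acsl4, Acsl6 and Acadvl) lower, with Acsl5, Cpt2 and Hadha not called. Across all tested genes 42.5% were called, 21.7% higher and 20.9% lower. The KO and WT libraries did not overlap for 7 of the 10 and for 55.6% of all tested genes. The median log2 change was -0.44 for the 10 genes and -0.0026 for all tested genes. The split among all called genes, 3466 higher and 3343 lower, was 3085 and 1363 under scaling by the spike-in RNAs, which moved the median of all genes to 0.14, and the 10 genes counted 2 higher and 5 lower there. In that scaling Acsl5, Cpt2 and Hadha stood at 0.07, 0.09 and 0.10, each below the median of all genes. In the authors' deposited table the log2 changes of these 10 genes differed from those given here by at most 0.06 and had the same sign for all 10.

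**Figure D3:**
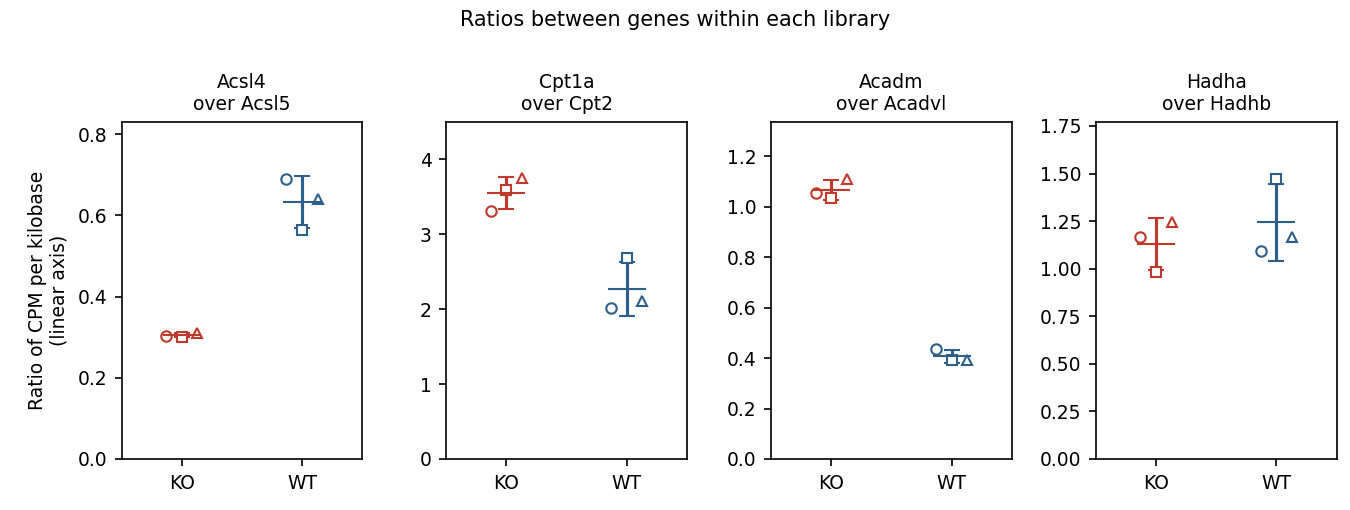
Ratios of CPM per kilobase between pairs of genes within each library (linear axes from 0), KO in red left of WT in blue, with symbols for replicates and the mean ± SD. Acsl4 over Acsl5 is 0.304 ± 0.0050 in KO and 0.633 ± 0.0636 in WT, Acadm over Acadvl is 1.07 ± 0.0407 in KO and 0.407 ± 0.025 in WT, and Hadha over Hadhb overlaps between the groups.

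The order of the 10 genes by level per length also differed. In KO the order was Acsl5 (80.7 CPM per kilobase), Acadm (42.7), Acadvl (40.0), Hadha (37.4), Acsl4 (24.6), Cpt1a (15.9), Acsl3 (8.84), Cpt2 (4.48), Acsl1 (1.49) and Acsl6 (0.390), and the ranges of Acadm and Acadvl and of Acadvl and Hadha overlapped. In WT it ran Acsl5 (84.8 CPM per kilobase), Acadvl (70.1), Acsl4 (53.5), Hadha (38.4), Acadm (28.5), Acsl3 (20.8), Cpt1a (10.4), Acsl6 (6.53), Cpt2 (4.62) and Acsl1 (2.59), and no neighbours overlapped. The WT levels thus spanned 32.7 times from Acsl1 to Acsl5. Replicates were tightest for Acsl4 in KO (coefficient of variation 1.497%) and for Acadvl in WT (2.63%). They were widest for Acsl6 in KO (30.04%) and for Acsl1 (23.5%) and Hadha (19.8%) in WT.

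The rest of the pathway and genes beside it were followed in 10 further lists, called the pathway lists below. Among them is a list of genes that control ferroptosis, a form of cell death by peroxidised lipids (13 tested, 2 higher and 5 lower), described at the end. The lists held 150 genes, of which 113 passed the filter on low counts. Of these, 18 were called higher and 24 lower in KO, 37.2% in all, below the 42.5% of all tested genes, with a median log2 change of -0.07. Without WT replicate 2 the split was 19 higher and 30 lower. Under spike-in scaling it was 13 higher and 13 lower. The counts of each list below stand beside shares of 21.7% higher and 20.9% lower over all tested genes.

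**Figure D4:**
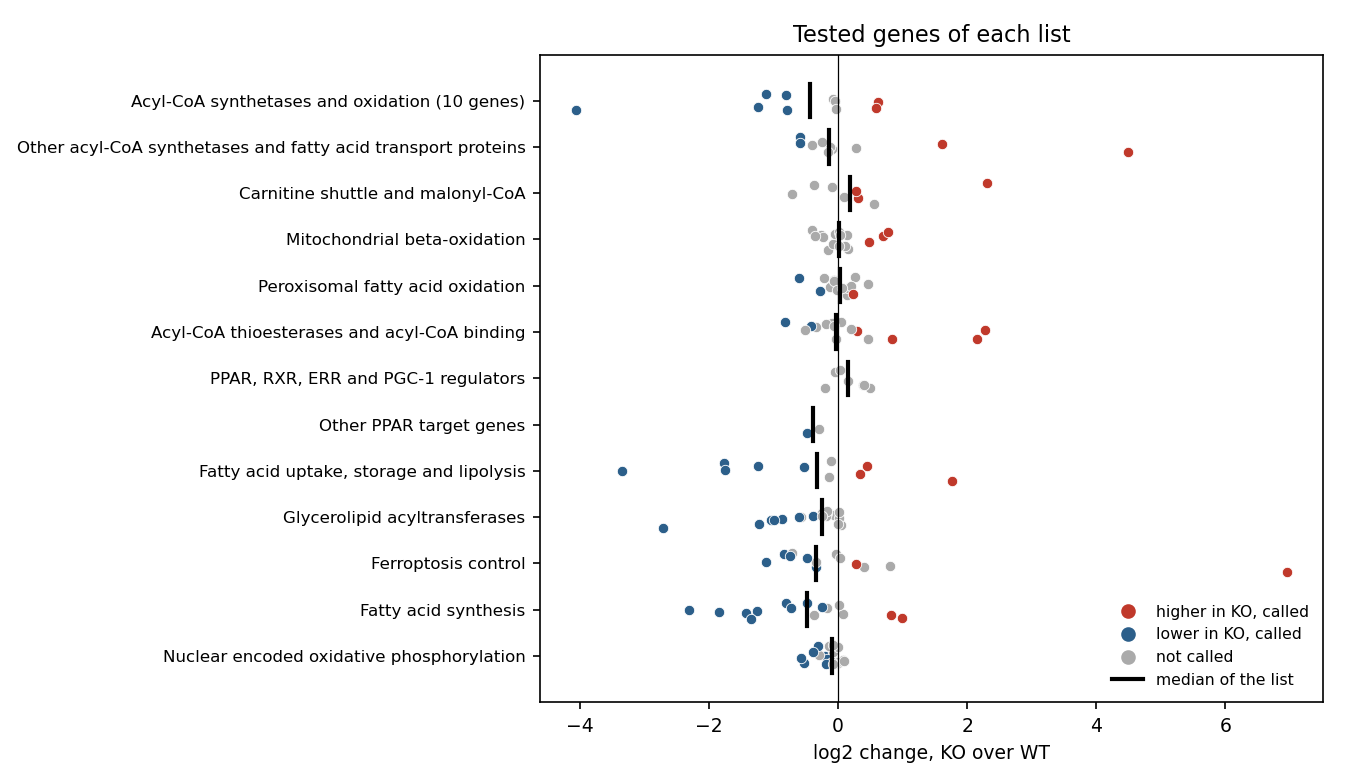
Log2 change KO over WT (x axis) of every tested gene in the 10 genes described above, the 10 further pathway lists and 2 lists for comparison, 1 point per gene, red for called higher, blue for called lower and grey for not called, with a black bar at the median. Most points of the mitochondrial, peroxisomal and PPAR lists lie near 0, and the points of the acyltransferase list are called in the lower direction only.

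Among other acyl-CoA synthetases and fatty acid transport proteins, 2 of 10 tested genes rose and 2 fell (median log2 change -0.14). Slc27a4, a transport protein with synthetase activity for very long chains, fell to 20.9, 20.03 and 22.0 CPM in KO, against 28.6, 34.4 and 32.1 CPM in WT (edgeR adjusted p = 0.00167, and 0.0958 under spike-in scaling). Slc27a3 rose to 1.64 ± 0.17 CPM in KO, against 0.532 ± 0.14 CPM in WT (SD, n = 3 each, edgeR adjusted p = 0.00153). Slc27a6 passed the filter on low counts only through the KO libraries, where it was high. It had 55 counts over the KO libraries and 2 over the WT libraries, a ratio of 26.2 with a counting interval of 6.92 to 221.8 (exact, 95%). Both WT counts were in WT replicate 3, and without that library the KO level was at least 11.4-fold higher, taking 3 counts over the other WT libraries as the floor. Outside the 3 of lowest p, and chosen after their values were seen, are Aacs and Acss2. Aacs, which activates acetoacetate, had 43.6, 40.3 and 44.3 CPM in KO and 77.2, 45.8 and 69.7 CPM in WT, where WT replicate 2 lay close to the KO libraries (log2 change -0.59 ± 0.18 SE, edgeR adjusted p = 0.0305). Without WT replicate 2 the log2 change was -0.79, and the call was lost on leaving out any other library (edgeR adjusted p from 0.0785 to 0.107), under spike-in scaling, when KO replicate 2 alone stood for KO and after adjustment for Y-linked counts. Acss2, the cytosolic acetate synthetase, was not called (log2 change -0.12 ± 0.08 SE, edgeR adjusted p = 0.292).

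Of 8 genes of the carnitine shuttle and malonyl-CoA turnover, 3 rose and none fell (median log2 change 0.18). Slc25a20, the carrier that exchanges acylcarnitine for carnitine across the inner membrane, had 46.5, 48.3 and 54.1 CPM in KO and 37.9, 40.3 and 41.6 CPM in WT (log2 change 0.31 ± 0.08 SE, edgeR adjusted p = 0.0159). Crot, the peroxisomal carnitine octanoyltransferase, had a log2 change of 0.27 ± 0.07 SE (edgeR adjusted p = 0.0212). Cpt1c, a CPT1 form of the endoplasmic reticulum with little transferase activity, rose to 1.57 ± 0.23 CPM in KO, against 0.317 ± 0.074 CPM in WT (SD, n = 3 each). Its WT counts, 11, 10 and 16, would not have passed the filter on low counts alone. It thus passed only with the KO libraries, where it was high. The calls of Slc25a20 and Crot were lost when KO replicate 2 alone stood for KO, after adjustment for Y-linked counts, under spike-in scaling and without WT replicate 1, and that of Crot also without KO replicate 2.

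Of 16 further genes of mitochondrial beta-oxidation, 3 rose, none fell and 13 were not called (median log2 change 0.01). Etfdh, which passes electrons from the dehydrogenases to ubiquinone, had 105, 101 and 116 CPM in KO and 61.8, 64.7 and 62.6 CPM in WT (log2 change 0.77 ± 0.07 SE, edgeR adjusted p = 0.000143). Acad11, an acyl-CoA dehydrogenase known as a target of p53, had 38.3, 36.5 and 40.0 CPM in KO and 23.1, 23.8 and 24.3 CPM in WT (edgeR adjusted p = 0.00026). Both stood clear of WT in every KO library. Acad9, needed chiefly for assembly of complex I, had 48.2, 50.1 and 49.9 CPM in KO and 39.05, 28.8 and 38.4 CPM in WT (log2 change 0.48 ± 0.12 SE, and 0.35 without WT replicate 2, the lowest WT library). Its call was lost when KO replicate 2 alone stood for KO, after adjustment for Y-linked counts and, narrowly, without KO replicate 2 (edgeR adjusted p = 0.0503). Core enzymes not called, chosen after their values were seen, were Acaa2, the thiolase (log2 change -0.04 ± 0.06 SE), Echs1, the short-chain hydratase (-0.08 ± 0.07 SE), and Eci2, an isomerase for unsaturated chains (0.02 ± 0.06 SE).

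Of 14 tested genes of peroxisomal oxidation, 1 rose and 2 fell (median log2 change 0.03). Abcd3, a peroxisomal importer of acyl chains, had a log2 change of 0.24 ± 0.07 SE (edgeR adjusted p = 0.0268), and Phyh, which opens the oxidation of phytanic acid, one of -0.28 ± 0.09 SE (edgeR adjusted p = 0.0368). Amacr, a racemase for branched chains, was lower by more (log2 change -0.61 ± 0.11 SE, edgeR adjusted p = 0.0035). The calls of Abcd3 and Phyh were each lost on leaving out KO replicate 1, KO replicate 3 or WT replicate 3, that of Abcd3 also without WT replicate 1 and with no filter on low counts, and that of Phyh also under upper-quartile scaling and with a filter at a mean of 1 CPM. The calls of all 3 genes were lost under spike-in scaling, when KO replicate 2 alone stood for KO and after adjustment for Y-linked counts.

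Among 15 tested genes for acyl-CoA hydrolysis and binding, 4 rose and 2 fell (median log2 change -0.03). Of those that rose, Acot12 passed the filter on low counts only through the KO libraries. It had 18, 31 and 36 counts in KO and 5, 7 and 6 counts in WT. Dbi, the acyl-CoA binding protein that carries the products of the synthetases, fell to 39.7, 35.3 and 42.4 CPM in KO, against 68.0, 75.6 and 64.3 CPM in WT (log2 change -0.82 ± 0.09 SE, edgeR adjusted p = 0.000407). Acot2, a mitochondrial thioesterase, had 27.6, 26.8 and 25.0 CPM in KO and 15.4, 13.8 and 15.2 CPM in WT (edgeR adjusted p = 0.000269). Its cytosolic neighbour Acot1 rose to 4.26 ± 0.48 CPM in KO, against 0.872 ± 0.19 CPM in WT (SD, n = 3 each), and since the genes are near copies of each other, how reads were shared between them is uncertain.

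No transcription factor of the programme was called. Of 7 tested PPAR, RXR, ERR and PGC-1 genes none passed in the fit of all libraries (median log2 change 0.15). Pparg had 2.16, 2.25 and 4.28 CPM in KO and 2.07, 1.72 and 2.43 CPM in WT, highest in KO replicate 3. Rxra and Rxrb had log2 changes of 0.15 ± 0.09 SE and -0.21 ± 0.10 SE, and Rxrb was called lower without WT replicate 2 (-0.30, edgeR adjusted p = 0.0159). Ppara and Ppargc1a, the main drivers of fatty acid oxidation in liver and muscle, were too low to test in both groups. Of 2 tested other PPAR targets, Angptl4 fell (log2 change -0.49 ± 0.13 SE, edgeR adjusted p = 0.0196). Its call was lost under spike-in scaling, after adjustment for Y-linked counts, when KO replicate 2 alone stood for KO and without KO replicate 1, KO replicate 2 or WT replicate 3. Ucp2 was not called (-0.30 ± 0.11 SE, edgeR adjusted p = 0.0665), with a call without WT replicate 3 (edgeR adjusted p = 0.0391). Pdk4, Ucp3 and Fgf21 were too low to test.

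In fatty acid uptake, storage and lipolysis, 3 of 10 tested genes rose, 5 fell and 2 were not called (median log2 change -0.33). Fabp5, the epidermal type of fatty acid binding protein, fell to 121, 119.95 and 131 CPM in KO, against 372, 465 and 433 CPM in WT (log2 change -1.77 ± 0.09 SE, edgeR adjusted p = 2.03e-05). Mgll, which releases the last fatty acid from glycerol, had 7.11, 8.32 and 13.1 CPM in KO and 29.9, 29.9 and 37.1 CPM in WT (edgeR adjusted p = 0.000733). Plin2, the coat protein of lipid droplets, went the other way, with 59.5, 62.7 and 78.7 CPM in KO and 17.4, 19.3 and 22.1 CPM in WT (log2 change 1.77 ± 0.13 SE, edgeR adjusted p = 7.80e-05). Its lowest KO library was thus well above the highest WT library.

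Of 18 tested glycerolipid acyltransferases, which use the acyl-CoA that the synthetases make, 7 fell and none rose (median log2 change -0.25). The share called over all tested genes was 42.5%, with 20.9% lower. Mboat2, which adds acyl chains to lysophospholipids, fell to 5.04, 6.47 and 3.84 CPM in KO, against 32.7, 35.4 and 32.6 CPM in WT (log2 change -2.72 ± 0.18 SE, edgeR adjusted p = 4.65e-05). Dgat1, which makes the last bond of triglyceride, had 54.2, 68.4 and 59.3 CPM in KO and 116, 125 and 134 CPM in WT (edgeR adjusted p = 0.000173). Mboat1, a related enzyme, had 12.8, 11.4 and 11.3 CPM in KO and 23.7, 19.3 and 21.6 CPM in WT. Lpcat3, which places the arachidonic acid activated by ACSL4 into phospholipids and was named after its values were seen, had a log2 change of -0.38 ± 0.07 SE (edgeR adjusted p = 0.00426, and 0.417 under spike-in scaling).

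**Figure D5:**
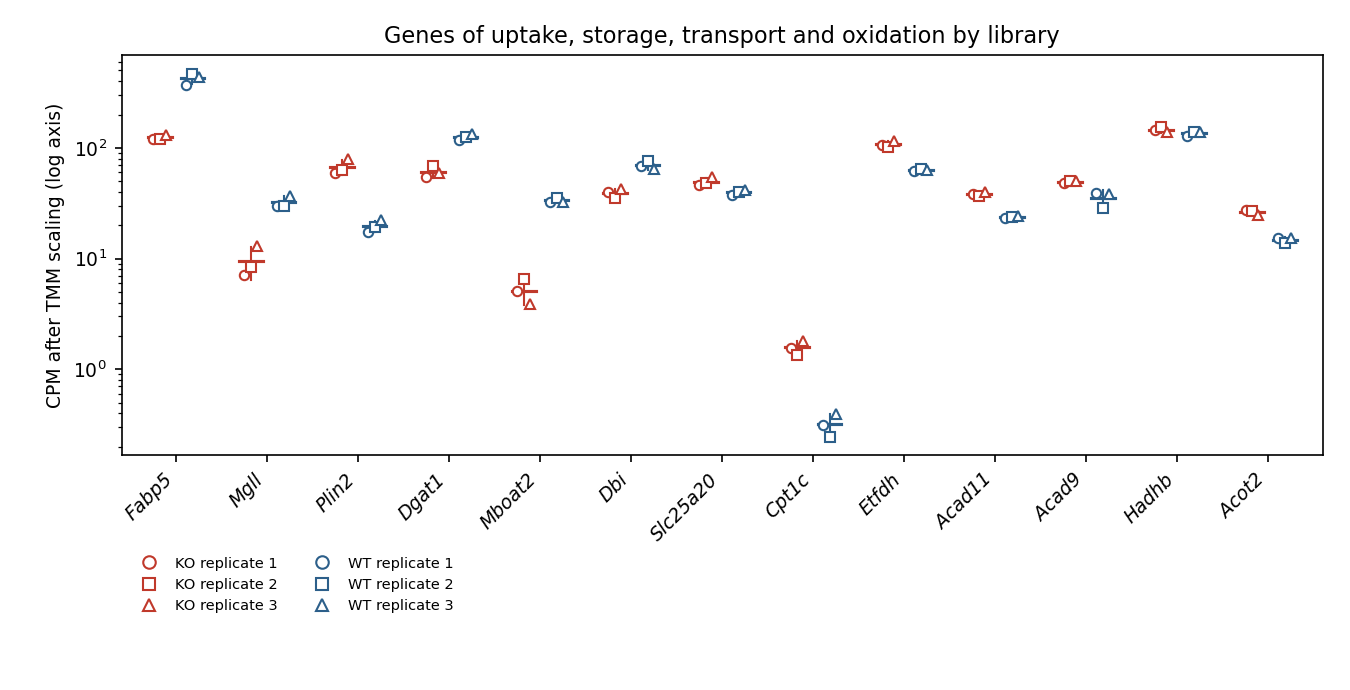
CPM (log axis) of 13 genes that act beside the synthetases and the oxidation enzymes, in each library, KO in red left of WT in blue, with symbols for replicates, a bar for the mean and a line for 1 SD. Fabp5, Mgll, Dgat1, Mboat2 and Dbi are lower in all KO libraries, Plin2, Slc25a20, Cpt1c, Etfdh, Acad11, Acad9 and Acot2 are higher in all KO libraries, and the Hadhb groups overlap.

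For comparison, 9 of 15 tested fatty acid synthesis genes fell and 2 rose (median log2 change -0.48), with Slc25a1, the citrate exporter of mitochondria, at 39.3% of its WT mean (edgeR adjusted p = 0.000215), Fads1 at 41.8% and Acly at 57.2%. Of 20 nuclear encoded subunits of the respiratory chain and ATP synthase, 7 fell and none rose (median log2 change -0.10), led by Cox6c, Cox5a and Ndufa1 with log2 changes of -0.39, -0.58 and -0.53, calls lost under spike-in scaling and, for Ndufa1, also when KO replicate 2 alone stood for KO. Beside these counts, 42.5% of all tested genes were called, 21.7% higher and 20.9% lower. The difference between these lists was not tested.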

How the data were processed

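Total RNA of 3 KO and 3 WT cultures was sequenced as ribosome-depleted stranded libraries, per the labels' protocols. The authors deposited 1 table with raw read counts per gene and library, gene length in bases, and their log2 fold change, which is quoted once. Per the submitters' processing notes the build was GRCm38.p3 and STAR, featureCounts, DESeq2 and DESeq were named. Whether counting used strand is not given in the sources used here. A further 8 columns of per-sample values or group means were not used.

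Counts were fitted with edgeR 4.0.16 (TMM scaling, quasi-likelihood test, filterByExpr with a minimum count of 10 and total of 15), with Benjamini-Hochberg adjustment over 16006 genes. The 92 spike-in entries, 0.161% to 0.216% of counts, stayed out of the library sizes. The fit was tested on simulated data. All 10 genes passed the filter. The exact interval of a count ratio covers counting error only.

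The 10 genes and all lists were chosen with earlier results of these data known. Named genes were the 10 genes, Prmt5 and, from each list, the 3 with the lowest p in either direction. Others were named after their values were seen. These were Aacs, Acss2, Hadhb, Acaa2, Echs1, Eci2, Lpcat3, Gpx4, Acot12, Pdgfrb, Cd4, Xist, genes that overlap the 10, and genes too low to test. Alternatives were RLE, upper-quartile and spike-in scaling, other filters, limma-voom (limma 3.58.1), DESeq2 1.42.0, each library left out, a replicate block, KO replicate 2 alone against WT, and an adjustment for Y-linked counts. Promoter windows came from the RefSeq table of GRCm38.p6.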

Additional observations from a re-analysis of the deposited data

How the results depend on the processing

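Against 6809 genes called in all, 4448 were called under spike-in scaling, 2844 when KO replicate 2 alone stood for KO and 3460 after adjustment for Y-linked counts, and against 42 genes called in the pathway lists the count was 26 under spike-in scaling. The 2 higher and 5 lower of the 10 genes were counted under every alternative except those on KO replicate 2 alone and with the Y-linked adjustment, which counted 2 and 4, without Acsl1. Several genes that were not called changed sign: Cpt2 was 0.0019 and Hadha 0.011 (log2 change) under upper-quartile scaling, where Acaa2 was 0.0055 and Gpx4 0.0084. Under spike-in scaling Acsl5 was 0.066, Cpt2 0.094, Hadha 0.098, Acss2 0.020, Acaa2 0.093, Echs1 0.057 and Gpx4 0.089. Echs1 was 0.0076 when KO replicate 2 alone stood for KO, and after adjustment for Y-linked counts Acss2 was 0.011 and Echs1 0.014. With 1 library left out, Cpt2 ran from -0.16 to 0.041, Hadha from -0.16 to 0.12, Eci2 from -0.011 to 0.055 and Gpx4 from -0.10 to 0.0025. The cause was not tested. Not divided by length, the share of Acsl5 in the summed Acsl level was 66.1% in KO and 46.3% in WT.

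Deviations from the group mean correlated at -0.051, -0.059 and 0.082 between KO and WT libraries with the same replicate number. Between libraries with different numbers they correlated at -0.073 to 0.105. With deviations from a mean of only 3 libraries a group, these values cannot decide whether the numbers pair the samples. With a replicate block 6190 genes were called, 3202 higher and 2988 lower, with 2 and 5 of the 10 genes, and the calls of Abcd3 and Phyh were lost. Fits without the KO libraries 1 and 3 rest on 1 KO library, assumed to vary like the WT libraries. The adjustment for Y-linked counts also rests mainly on KO replicate 2. No WT library held such counts, and KO replicate 2 was the only KO library with a low level. With 3 libraries a group, the intervals of Cpt2 and Hadha, -0.36 to 0.27 and -0.35 to 0.27, hold changes that were not detectable at this number.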

Other observations

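The products of ACSL4 are substrates of lipid peroxidation, so genes that control ferroptosis, a form of cell death by peroxidised lipids, were listed as well. Of 13 tested genes, 2 rose and 5 fell in KO (median log2 change -0.34). Tfrc, the transferrin receptor that brings iron into the cell, fell to 778, 805 and 715 CPM in KO, against 1269.5, 1491 and 1341 CPM in WT (log2 change -0.84 ± 0.07 SE, edgeR adjusted p = 0.000149). Nfe2l2, the regulator of antioxidant genes, had 44.2, 38.4 and 44.5 CPM in KO and 67.6, 74.3 and 71.0 CPM in WT (edgeR adjusted p = 0.000306). In both genes every KO library lay below every WT library. Gpx4, the enzyme that reduces lipid peroxides, was named after its values were seen and had 131, 135 and 144 CPM in KO and 143, 129 and 149.5 CPM in WT, which overlap (log2 change -0.04 ± 0.07 SE).

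Alox5, a lipoxygenase of myeloid and mast cells, had 2.62, 3.68 and 10.8 CPM in KO and 0.0283, 0 and 0.0982 CPM in WT. Alox5 passed the filter on low counts only through the KO libraries. It was highest in KO replicate 3, as were the sums of the B cell, myeloid and granulocyte markers, and the part of such cells in its level was not tested.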
